A study of Mus musculus with 24 samples.

Results

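The comparison described here set cerebella of vehicle-treated mice without functional Npc1 against cerebella of vehicle-treated wild-type mice. Its members are 8 of the 24 libraries in the series, chosen by the genotype, treatment and tissue in the labels, with 4 Npc1-/- and 4 Npc1+/+ animals. All mice were of the strain BALB/cNctr-Npc1m1N/J, whose spontaneous mutation inactivates Npc1 in every cell of the body when both copies carry it. Both groups received the solvent PBS:PEG400 by intraperitoneal injection on 5 days a week from postnatal day 28. The Npc1-/- vehicle mice were 63 days old and comprised 3 males and 1 female (replicate 3). The Npc1+/+ vehicle mice were 65 days old, and all 4 were female. The labels call the genotypes littermates. Age and the ion codes, which the labels give as the batch (117 to 123 for Npc1-/- and 101 to 111 for Npc1+/+ libraries), went wholly with genotype and cannot be told apart from it. A further 4 cerebella, from Npc1-/- mice given dipyridamole in that solvent, were in the model but not in the contrast. They entered the count filter, the scaling of library sizes and the estimates of sex and of the spread between animals. These mice were 63 days old, with replicates 1 and 2 male and replicates 3 and 4 female.

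NPC1 is a membrane protein of late endosomes and lysosomes that passes cholesterol on from the luminal carrier NPC2. Without it cholesterol and sphingolipids accumulate in lysosomes, and in the mouse cerebellum this is known for the loss of Purkinje cells, the only output neurons of the cerebellar cortex, together with activation of microglia and astrocytes. Purkinje cells receive parallel fibres from granule cells and climbing fibres from the inferior olive, and Bergmann glia, specialised astrocytes, ensheath their dendrites. In bulk tissue fewer cells of a type and less RNA per cell cannot be told apart, which holds for each cell type described here.

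Npc1 itself (GRCm39, ENSMUSG00000024413.15, chr18:12322749-12369457, minus strand) was the first gene examined. Its level was 39.3, 25.3, 33.8 and 22.7 CPM, which is the count scaled to the size of its library, in Npc1-/- cerebella, against 112, 110.2, 103 and 102 CPM in Npc1+/+ cerebella. The lowest Npc1+/+ library lay well above the highest Npc1-/- library. The log2 fold change was -1.64 ± 0.27, and edgeR's quasi-likelihood test gave an adjusted p of 0.000647. Every value after ± is an approximate standard error, the absolute log2 fold change divided by the square root of that test's F statistic. For genes with few counts in a group it can be smaller than the counting error. Where the amplicon for Npc1 lies relative to the mutation is not given in the sources used here, so the level checks the labels only as far as the transcript is affected.

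Counts on genes totalled 1833609 to 8067175 in the Npc1-/- libraries and 7481561 to 11324116 in the Npc1+/+ libraries. The shallowest was Npc1-/- replicate 2, in which 3 counts correspond to 1.62 CPM, against 0.271 to 0.451 CPM in the other 7 libraries. That library also stood apart from the other 7 on the second principal component, which held 24.8% of the variance, while the first (47.4%) separated the genotypes. Expression deviated with the GC content of transcripts by -0.0222 to 0.132 log2 units per 10 percentage points of GC in the Npc1-/- libraries, against -0.114 to -0.0481 in the Npc1+/+ libraries. The tissue label was borne out by its markers: Gabra6, the granule cell GABA-A receptor subunit, ranged from 147 to 267 CPM in the Npc1-/- cerebella and from 315 to 484 CPM in Npc1+/+ cerebella. It did not exceed 0.430 CPM in the 12 hippocampal libraries of the series. Neurod1, listed as a granule cell marker, stayed at or below 0.132 CPM in the Npc1-/- and 0.134 CPM in the Npc1+/+ cerebella. Hbb-bs of blood had no count in these cerebella or in the 12 hippocampal libraries. Whether the panel measures these 2 genes was not tested, so neither value is read for the content of the tissue. The CPM values of these markers were scaled over all 24 libraries.

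Of 12921 genes tested, 764 (5.91%) were higher and 522 (4.04%) lower in the Npc1-/- cerebella at an adjusted p of 0.05, together 9.95%. Counts of list members that rose or fell, given below, are to be read against these shares. Lists and members were chosen with earlier results of these data known, so a share above these can partly reflect that choice. Among the called genes, 519 rose at least 2-fold (4.02% of genes tested) and 240 fell at least 2-fold (1.86%). The higher side reached further: 183 genes rose and 61 fell at least 4-fold, and 30 rose at least 16-fold. In 20.6% of all tested genes the 4 Npc1-/- libraries did not overlap the 4 Npc1+/+ libraries (11.0% above and 9.59% below them). Of the called genes 1080 were of this kind. The median log2 fold change over all tested genes was 0.0064. When each of the 8 libraries was left out in turn, 420 genes were called in every fit, 274 of them higher and 146 lower.

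The highest and lowest genes, taken among called genes of at least 5 CPM on average whose groups did not overlap, are described here and with their lists. Itgax (GRCm39, ENSMUSG00000030789.10, chr7:127728719-127749829, plus strand), the integrin CD11c of activated microglia, was measured at 27.4, 10.8, 29.9 and 23.9 CPM in Npc1-/- cerebella, against 0.181, 0.208, 0 and 0 CPM in Npc1+/+ cerebella. Its log2 fold change of 7.65 ± 0.47 (adjusted p 6.74e-09) rests on 625 counts in the Npc1-/- libraries together, against 4 counts in the Npc1+/+ libraries together. Gpnmb (ENSMUSG00000029816.11, chr6:49013480-49047863, plus strand), a glycoprotein of lipid-laden phagocytes, stood at 76.9, 133, 60.7 and 56.4 CPM in Npc1-/- cerebella, against 0.362, 0.416, 0.534 and 0.126 CPM in Npc1+/+ cerebella, a log2 difference of 7.54 ± 0.38. Both genes were thus near the detection floor in wild-type cerebellum and well above it in all 4 mutants. Atp6v0d2, the macrophage and osteoclast form of a proton pump subunit, had 255 counts in the Npc1-/- libraries and 3 in the Npc1+/+ libraries, a ratio of 127 (95% interval of the counts, 43 to 621). The other 12 of the 15 highest were Clec7a, Hpse, Lyz2, C3ar1, Cd180, C3, Hvcn1, Cd68, Gfap, Arl11, Blnk and Tyrobp. Arl11, a small GTPase of macrophages, differed by 3.65 ± 0.30 and Hvcn1, a proton channel of phagocytes, by 3.95 ± 0.32 on the log2 scale.

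Lowest of all was Fgf7 (ENSMUSG00000027208.15, chr2:125876578-125933105, plus strand), a growth factor of the Fgf family, at 1.62, 2.15, 1.05 and 2.26 CPM in Npc1-/- cerebella, against 22.97, 27.9, 31.8 and 33.4 CPM in Npc1+/+ cerebella, a log2 fold change of -4.41 ± 0.33. Car8 (ENSMUSG00000041261.10, chr4:8143362-8239041, minus strand), a carbonic anhydrase homologue that binds the IP3 receptor of Purkinje cells, stood at 34.6, 24.8, 60.5 and 38.2 CPM in Npc1-/- cerebella, against 694, 725, 901 and 694 CPM in Npc1+/+ cerebella. The highest Npc1-/- value of Car8 belonged to replicate 3, and the log2 fold change of -4.07 ± 0.26 became -4.79 without Npc1-/- replicate 3. Slc5a1, a sodium-glucose cotransporter, was at 0.7495, 4.31, 1.18 and 0.301 CPM in Npc1-/- cerebella, against 9.59, 8.74, 8.41 and 9.58 CPM in Npc1+/+ cerebella. Its fitted log2 fold change, which adjusts for sex, was -3.68 ± 0.65, and -5.02 without Npc1-/- replicate 3, whereas the log2 ratio of the 2 group means was -2.47. Such a gap of over 1 between the fitted value and the ratio of means was found in 12 called genes, those without any Npc1+/+ count included, and the ranking here uses the fitted value. Cep76, a centriolar protein, was measured at 18.9, 32.9, 18.2 and 16.4 CPM in Npc1-/- cerebella, against 129, 111, 147 and 116 CPM in Npc1+/+ cerebella, a log2 fold change of -2.88 ± 0.25. Trabd2b, a metalloprotease that cleaves Wnt proteins, changed by -2.84 ± 0.41 on the same scale. The remaining lowest genes, Itpka, Calb1, Ppp1r17, Ryr1, Pcp2, Atp2a3, Arhgef33, Grid2ip, Col18a1 and Nr4a3, are taken up with their groups, and each of the 30 genes kept its call in every fit that left out a library.

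**Figure D1:**
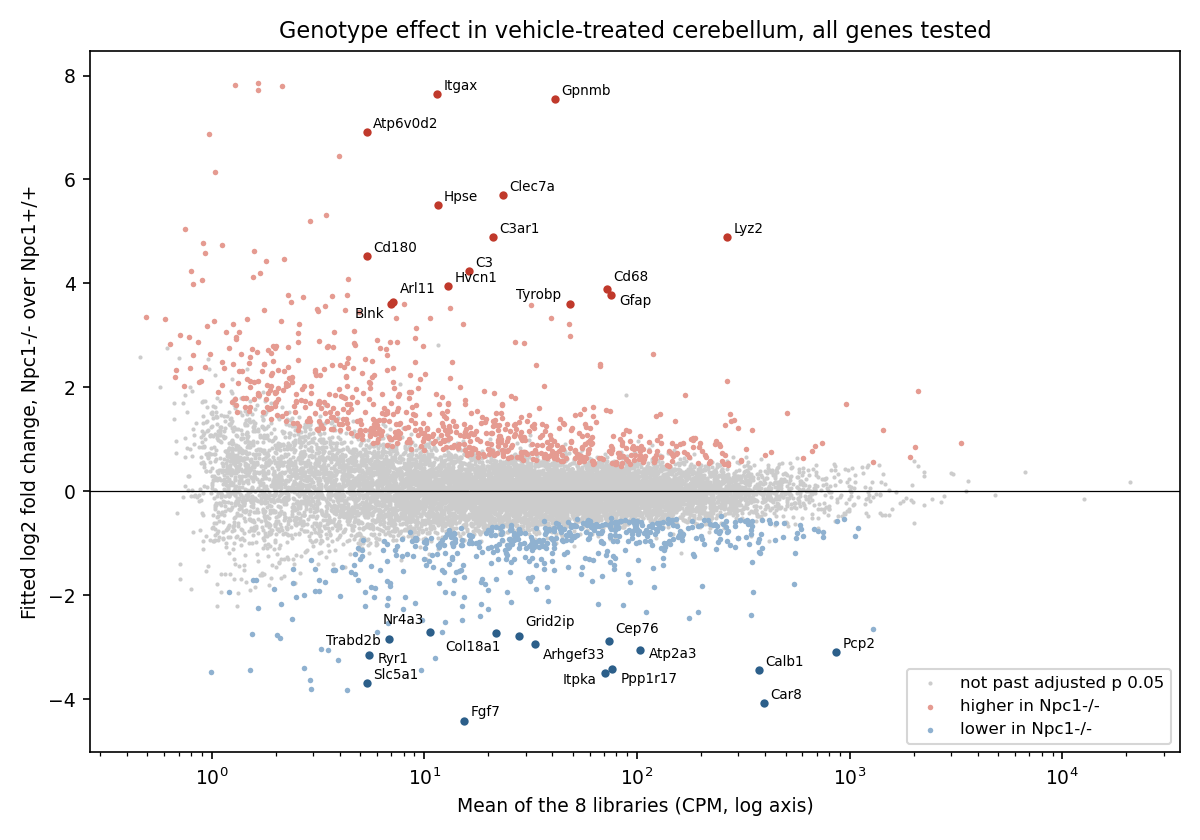
Fitted log2 fold change of Npc1-/- over Npc1+/+ vehicle cerebellum against the mean of the 8 libraries in CPM (log axis), 1 point per gene tested; red points are the 764 higher and blue points the 522 lower genes, and the labelled points are the 15 highest and 15 lowest named genes. Among the labelled genes the higher side extends to 7.54 for Gpnmb and 7.65 for Itgax, the lower side to -4.41 for Fgf7.

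Genes of the receptors through which microglia, the resident macrophages of the brain, sense lipids, debris and antibodies rose. Of 15 tested members of the Trem2, Fc receptor and Clec7a list, 13 rose and none fell, with a median log2 fold change of 2.40 against 0.0064 over all genes. Trem2, the receptor for lipids and lipoproteins, stood at 44.2, 92.6, 55.8 and 46.8 CPM in Npc1-/- cerebella, against 3.17, 3.54, 3.47 and 5.67 CPM in Npc1+/+ cerebella, with a log2 fold change of 3.58 ± 0.30 (adjusted p 2.25e-07). Its adaptor Tyrobp, which carries the activating motif, stood at 112, 66.2, 83.3 and 95.5 CPM in Npc1-/- cerebella, against 6.78, 6.76, 7.21 and 8.95 CPM in Npc1+/+ cerebella, a difference of 3.61 ± 0.22. No Npc1-/- library overlapped an Npc1+/+ library for either gene. Clec7a, the receptor Dectin-1, was at 56.3, 45.2, 41.3 and 40.9 CPM in Npc1-/- cerebella, against 0.904, 1.14, 0.667 and 0.6303 CPM in Npc1+/+ cerebella, a log2 fold change of 5.71 ± 0.26. Among the Fc receptor genes, Fcgr3 rose by 2.42 ± 0.18, Fcgr1 by 1.67 ± 0.32 and the shared signalling chain Fcer1g by 3.22 ± 0.25. Downstream, the adaptor Blnk rose by 3.61 ± 0.29, the phospholipase Plcg2 by 1.70 ± 0.38, the exchange factor Vav1 by 2.02 ± 0.39 and the phosphatase Ptpn6 by 2.44 ± 0.37. The lipid phosphatase gene Inpp5d, the adaptor gene Hcst and the membrane protein gene Ms4a6d also passed, but not without Npc1-/- replicate 3, with adjusted p of 0.229 for Inpp5d, 0.0567 for Ms4a6d and up to 0.235 for Hcst (without Npc1-/- replicate 3 or Npc1+/+ replicate 1, 3 or 4). Replicate 3 was the only female among the Npc1-/- vehicle mice, and without it sex went wholly with genotype in the vehicle groups and was estimated from the dipyridamole mice alone. Here and in the following, where a call ended when a library was left out, the adjusted p given is that of the fit without Npc1-/- replicate 3, or the highest over the fits without the libraries named.

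The set of genes that microglia are known to switch on around lipid and debris, often called the disease-associated state, also rose. Of 27 tested members 22 rose and none fell, with a median log2 fold change of 2.09, and 19 of the 22 were called in every leave-one-out fit. Lyz2, the lysozyme of myeloid cells, stood at 571, 402, 602 and 483 CPM in Npc1-/- cerebella, against 20.5, 19.8, 17.6 and 15.002 CPM in Npc1+/+ cerebella, a log2 fold change of 4.89 ± 0.19. Cd68, a lysosomal glycoprotein of phagocytes, was measured at 150.2, 110.4, 135 and 146 CPM in Npc1-/- cerebella, against 13.3, 7.49, 10.5 and 7.19 CPM in Npc1+/+ cerebella, a difference of 3.89 ± 0.26. Apoe, the main apolipoprotein of the brain, was at 1616, 1488, 1429 and 1438 CPM in Npc1-/- cerebella, against 439.7, 495, 374 and 406 CPM in Npc1+/+ cerebella, a log2 fold change of 1.69 ± 0.16 (adjusted p 1.91e-06). For these 3 genes the groups did not overlap, and every Npc1-/- library lay well above the highest Npc1+/+ library. Cst7, an inhibitor of cathepsins in activated microglia, had 102 counts in the Npc1-/- libraries and none in the Npc1+/+ libraries, so it was at least 50.9-fold higher against a floor of 3 counts over the group. Hpse, the heparan sulfate-cleaving heparanase, rose by 5.50 ± 0.29, the galectin Lgals3 by 5.31 ± 0.47, the NADPH oxidase subunit Cybb by 3.76 ± 0.38 and the checkpoint receptor Lag3 by 2.56 ± 0.36. Csf1, a ligand of the receptor on which microglia depend, rose by 1.62 ± 0.19. The surface glycoprotein gene Cd52 rose by 3.45 ± 0.38 and the actin-capping protein gene Capg by 2.09 ± 0.28. The tetraspanin genes Cd63 and Cd9 rose by 1.18 ± 0.21 and 0.66 ± 0.15. The calls of the secreted phosphoprotein Spp1, the protease Ctsb and the lipase Lpl ended in some fits, with adjusted p of 0.0884 for Spp1, up to 0.0755 for Ctsb (without Npc1-/- replicate 3 or 4 or Npc1+/+ replicate 1, 2, 3 or 4) and up to 0.165 for Lpl (without Npc1-/- replicate 3 or Npc1+/+ replicate 1, 2 or 3). Axl, a receptor for apoptotic cells, had a log2 value of 0.69 ± 0.25 and did not pass (adjusted p 0.0945).

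Of 16 tested genes known to mark microglia at rest, 8 rose and none passed as lower, with a median log2 fold change of 1.29. Values were above 0 for 14 of the 16, and the lowest value, -1.27, did not pass. Cx3cr1, the fractalkine receptor, was at 38.5, 52.2, 34.9 and 40.1 CPM in Npc1-/- cerebella, against 10.7, 9.57, 12.9 and 13.7 CPM in Npc1+/+ cerebella, a log2 fold change of 1.80 ± 0.22. P2ry13, a nucleotide receptor, stood at 20.4, 39.9, 19.5 and 24.5 CPM in Npc1-/- cerebella, against 7.05, 7.08, 6.67 and 7.82 CPM in Npc1+/+ cerebella, a difference of 1.51 ± 0.26. The nucleotide receptor gene P2ry6 rose by 2.44 ± 0.40 and the lysophospholipid receptor gene Gpr34 by 1.68 ± 0.34. P2ry12, the receptor that guides microglial processes, rose by 2.20 ± 0.56, and by 3.25 without Npc1-/- replicate 3. The calls of the growth factor receptor gene Csf1r and of the secreted olfactomedin-like protein gene Olfml3 ended without Npc1-/- replicate 3, with adjusted p of 0.0698 for Csf1r and 0.0563 for Olfml3. The marker Tmem119 stood at 13.1, 30.2, 11.3 and 16.1 CPM in Npc1-/- cerebella, against 7.596, 9.36, 13.9 and 9.96 CPM in Npc1+/+ cerebella, groups that overlapped (adjusted p 0.594). Siglech, a sialic acid-binding receptor, and Sall1, a transcription factor of resting microglia, had log2 values of 0.37 ± 0.25 and -0.44 ± 0.47 and did not pass.

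Of 15 tested genes for the transcription factors and surface proteins of the myeloid lineage, 11 rose, with a median log2 fold change of 1.84. Spi1, which encodes the lineage factor PU.1, was at 12.7, 14.002, 9.47 and 9.17 CPM in Npc1-/- cerebella, against 1.81, 2.29, 1.87 and 2.27 CPM in Npc1+/+ cerebella, a log2 fold change of 2.33 ± 0.28. Irf8, its partner, rose by 2.49 ± 0.31, Runx1 by 1.84 ± 0.31 and Cebpa by 1.82 ± 0.26. Laptm5, a lysosomal membrane protein of blood cells and microglia, rose by 2.64 ± 0.18, the pan-leukocyte phosphatase Ptprc by 2.27 ± 0.31 and Aif1, which encodes the marker Iba1, by 1.87 ± 0.27. Csf2rb, a cytokine receptor subunit, had 56 counts in the Npc1-/- libraries and 3 in the Npc1+/+ libraries, a ratio of 27.9 with a 95% counting interval of 9.08 to 140. Csf3r rose by 2.32 ± 0.54 (3.06 without Npc1-/- replicate 3) and the lymphoid and myeloid factor Ikzf1 by 1.61 ± 0.41 (2.24 without Npc1-/- replicate 3). The call of the tetraspanin Cd53 ended in several fits, with an adjusted p of up to 0.285 for Cd53 (without Npc1-/- replicate 1, 3 or 4 or Npc1+/+ replicate 1, 2 or 3). Markers of other myeloid and lymphoid cells stood beside these values. Of 24 genes listed for border macrophages, monocytes, lymphocytes and blood, 17 were below the count filter and none of the 7 tested rose. Of 57 listed cytosolic ribosomal protein genes 45 were also below the filter, so a place below it need not mean low expression. Whether the panel measures the 17 genes was not tested, and the list says little about such cells. Of the 7 tested 1, the erythroid gene Alas2, fell by 1.70 on the log2 scale. Its call ended with an adjusted p of up to 0.445 for Alas2 (without Npc1-/- replicate 3 or 4 or Npc1+/+ replicate 1, 3 or 4), and its log2 value was -1.03 without Npc1-/- replicate 3. The list summed to 13.9 to 21.004 CPM in the Npc1-/- libraries, against 12.6 to 20.9 CPM in the Npc1+/+ libraries. On the scale over all 24 libraries, Ccr2 of monocytes did not exceed 0.296 CPM in the Npc1-/- libraries or 0.380 CPM in the Npc1+/+ libraries, and Cd3e of T cells did not exceed 0.444 CPM in the Npc1-/- libraries or 0.134 CPM in the Npc1+/+ libraries.

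Complement genes, which tag debris and synapses for phagocytes, rose in 9 of 12 tested cases and fell in none, with a median log2 fold change of 2.59. C3, the central component, stood at 35.6, 20.5, 29.5 and 37.4 CPM in Npc1-/- cerebella, against 1.72, 2.39, 1.33 and 2.02 CPM in Npc1+/+ cerebella, a log2 fold change of 4.23 ± 0.28. C3ar1, the receptor for its cleavage product, was at 36.5, 53.3, 35.5 and 37.4 CPM in Npc1-/- cerebella, against 1.09, 0.936, 1.74 and 1.89 CPM in Npc1+/+ cerebella, a difference of 4.89 ± 0.30. For ligand and receptor alike, every Npc1-/- library lay above all 4 Npc1+/+ libraries. C4b rose by 3.34 ± 0.24, although reads of C4b and its near-identical copy C4a may be shared between them. The recognition molecule C1q was represented by C1qb (3.23 ± 0.45) and C1qc (3.54 ± 0.37), while C1qa had no counts in any of the 8 libraries. Itgb2, the beta chain of the phagocytic complement receptors, rose by 3.15 ± 0.27. The calls of C2, the clusterin gene Clu and the C1 inhibitor gene Serping1 did not hold in every fit, with adjusted p of 0.0902 for C2, 0.231 for Clu and up to 0.115 for Serping1 (without Npc1-/- replicate 3 or Npc1+/+ replicate 2).

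Of 19 tested genes for Toll-like receptors and their adaptors, 11 rose and none fell, with a median log2 fold change of 1.45. Those that rose include receptors of endosomal nucleic acid and the chaperone that delivers them, while Tlr3, the endosomal receptor for double-stranded RNA, did not pass. Tlr7 was at 10.1, 3.23, 9.74 and 7.22 CPM in Npc1-/- cerebella, against 0.271, 1.14, 1.07 and 1.01 CPM in Npc1+/+ cerebella, a log2 fold change of 3.48 ± 0.40. Tlr9 rose by 2.47 ± 0.41, Tlr13 by 2.19 ± 0.52 and the chaperone Unc93b1 by 2.02 ± 0.26. Cd180, a Toll-like receptor homologue, rose by 4.53 ± 0.39, and Cd14, the coreceptor for lipopolysaccharide, by 1.98 ± 0.30. Calls for Ly86, which pairs with Cd180, and for the receptor genes Tlr1, Tlr2, Tlr4 and Tlr8 ended in 1 or more fits, with adjusted p of 0.0688 for Ly86, up to 0.215 for Tlr1 (without Npc1-/- replicate 3 or Npc1+/+ replicate 1, 2 or 3), 0.0522 for Tlr2, up to 0.14 for Tlr4 (without Npc1-/- replicate 3 or 4 or Npc1+/+ replicate 2, 3 or 4) and up to 0.274 for Tlr8 (without Npc1-/- replicate 3 or Npc1+/+ replicate 2 or 4). Tlr8 was at 0 CPM in Npc1-/- replicate 2 and rose by 2.64 ± 0.74 in the fit (3.29 without Npc1+/+ replicate 3). Pycard, an inflammasome adaptor, had a log2 value of 0.74 ± 0.26 and did not pass.

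Chemokine and cytokine genes rose in 11 of 18 tested cases, with a median log2 fold change of 1.24. Cxcl16, a chemokine that also binds oxidised lipids, was at 12.1, 13.5, 14.3 and 11.9 CPM in Npc1-/- cerebella, against 1.899, 1.56, 2.403 and 1.76 CPM in Npc1+/+ cerebella, a difference of 2.87 ± 0.24. Ccl2, which draws monocytes, was at 4.37, 2.69, 3.03 and 2.26 CPM in Npc1-/- cerebella, against 0.271, 0.104, 0 and 0 CPM in Npc1+/+ cerebella. Its log2 fold change of 4.63 ± 0.62 became 5.77 without Npc1+/+ replicate 1, since the Npc1+/+ libraries held hardly any counts. Ccl6 rose by 2.52 ± 0.46 and the tumour necrosis factor receptor gene Tnfrsf1b by 1.61 ± 0.31. The calls of Tnfrsf1a, the growth factor Tgfb1, the chemokine receptor Cxcr4, the chemokine Cxcl14 and the interleukin-10 receptor gene Il10ra ended in some fits, with adjusted p of 0.0518 for Tnfrsf1a, 0.0595 for Tgfb1, 0.118 for Cxcr4, up to 0.103 for Cxcl14 (without Npc1-/- replicate 3 or Npc1+/+ replicate 4) and up to 0.0546 for Il10ra (without Npc1+/+ replicate 2 or 3). Genes for the cytokines Tnf, Il1a and Il6 were below the count filter, and Il33, an alarmin of astrocytes and oligodendrocytes, had a log2 value of 0.82 ± 0.27 that did not pass.

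Genes induced by interferon rose in 13 of 19 tested cases and fell in none, with a median log2 fold change of 1.66. Lgals3bp, a secreted scavenger receptor protein, stood at 109.8, 136, 104 and 114 CPM in Npc1-/- cerebella, against 19.2, 18.7, 18.7 and 15.3 CPM in Npc1+/+ cerebella, a difference of 2.45 ± 0.17 (adjusted p 2.99e-08). Oasl2, an oligoadenylate synthetase-like protein, was at 16.1, 16.7, 13.6 and 10.4 CPM in Npc1-/- cerebella, against 2.89, 3.12, 2.54 and 3.404 CPM in Npc1+/+ cerebella, a difference of 2.23 ± 0.26. Cxcl10, a chemokine for T cells, rose by 4.47 ± 0.72, and by 5.09 without Npc1-/- replicate 3. Ifi44 rose by 2.90 ± 0.47, the tetherin gene Bst2 by 1.52 ± 0.26 and the guanylate-binding protein gene Gbp2 by 2.33 ± 0.46. Ifit1, which binds foreign RNA, was at 12.9, 9.16, 20.002 and 10.8 CPM in Npc1-/- cerebella, against 5.61, 4.06, 3.34 and 3.404 CPM in Npc1+/+ cerebella, a difference of 1.91 ± 0.28. Its call ended without Npc1-/- replicate 3, the library with the highest level, as did others, with adjusted p of 0.0545 for Ifit1, 0.0785 for Irf7, 0.114 for Gbp3, 0.0678 for Rtp4, 0.0595 for Usp18, 0.221 for Trim30a and up to 0.308 for Oas1a (without Npc1-/- replicate 3 or 4 or Npc1+/+ replicate 1, 2, 3 or 4). Irf7 is the factor that amplifies type I interferon. Genes of the Ifit, Gbp, Oas and Trim30 families have close copies, so reads may be shared between members.

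The core of the interferon-stimulated response element, GAAA and again GAAA with 2 bases between them on either strand, was looked for in the 250 bases before and 50 bases after the start of each gene in RefSeq (GRCm38.p6). It was present in 7 of 11 promoters of the interferon genes that rose, in 2 of 5 promoters of those that did not pass, and in 3.42% of the 10060 promoters of tested genes. The 2 promoters below were chosen because they hold a match. Their genes had the smallest p of the risen genes with a match. Capitals mark the matches, of which Ifit1 (chr19:34640639-34640938, plus strand) held 2 and Cxcl10 (chr5:92348840-92349139, minus strand) 1.
Ifit1: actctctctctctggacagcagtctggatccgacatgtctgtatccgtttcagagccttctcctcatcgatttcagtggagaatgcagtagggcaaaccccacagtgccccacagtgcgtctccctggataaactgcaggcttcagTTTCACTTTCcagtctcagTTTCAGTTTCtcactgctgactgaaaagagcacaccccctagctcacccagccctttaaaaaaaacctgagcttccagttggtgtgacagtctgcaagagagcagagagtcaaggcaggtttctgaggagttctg
Cxcl10: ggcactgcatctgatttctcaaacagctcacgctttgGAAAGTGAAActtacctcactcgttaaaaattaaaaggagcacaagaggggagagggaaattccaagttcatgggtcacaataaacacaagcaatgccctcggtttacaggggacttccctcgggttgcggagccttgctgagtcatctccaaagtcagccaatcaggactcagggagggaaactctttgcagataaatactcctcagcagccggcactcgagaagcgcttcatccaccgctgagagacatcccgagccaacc
A match describes these letters and does not show that a factor was bound.

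Of 15 tested genes of antigen presentation, 7 rose, with a median log2 fold change of 0.58. All 7 belong to class I presentation or costimulation. B2m, the light chain of class I molecules, was at 116, 131, 113 and 86.7 CPM in Npc1-/- cerebella, against 34.7, 39.7, 40.04 and 37.9 CPM in Npc1+/+ cerebella, a difference of 1.54 ± 0.17. H2-K1, a class I heavy chain, rose by 1.37 ± 0.17 and H2-Q7 by 2.79 ± 0.52, with the caveat that class I heavy chains are close copies of one another. Cd86, a costimulatory ligand, rose by 2.73 ± 0.43 and the peptide-loading chaperone Tapbp by 0.90 ± 0.21. Calls for the immunoproteasome gene Psmb8 and the peptide transporter gene Tap1 ended in the fit without Npc1-/- replicate 3, with adjusted p of 0.0995 for Psmb8 and 0.123 for Tap1. The class II invariant chain Cd74 stood at 7.495, 3.23, 7.76 and 10.4 CPM in Npc1-/- cerebella, against 10.4, 7.91, 11.3 and 9.08 CPM in Npc1+/+ cerebella, groups that overlapped (log2 -0.45 ± 0.31, adjusted p 0.406). Another heavy chain, H2-D1, had a log2 value of 0.14 ± 0.20 and did not pass.

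**Figure D2:**
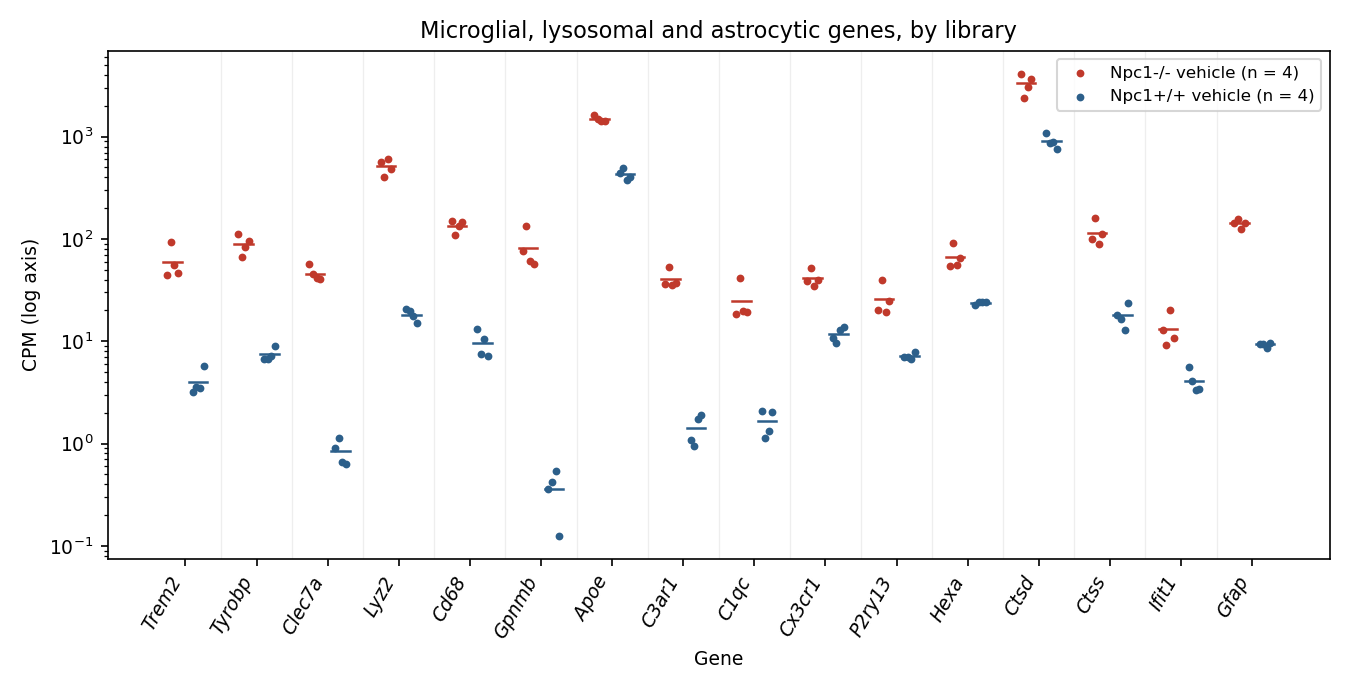
CPM (log axis) of 16 genes in each of the 4 Npc1-/- and 4 Npc1+/+ vehicle cerebella, 1 point per library and a bar at the group mean. For each gene shown the 4 Npc1-/- libraries lie above the 4 Npc1+/+ libraries, with the widest separation for Gpnmb and Clec7a and the narrowest for Ifit1, Ctsd and Hexa.

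Lysosomes degrade what microglia engulf, and cathepsins are their main proteases. Of 15 tested cathepsin and cystatin genes 10 rose and none fell, with a median log2 fold change of 0.93. Ctsd, the main aspartic protease of lysosomes, stood at 4115, 2407, 3081 and 3660.3 CPM in Npc1-/- cerebella, against 1081, 862, 895 and 757 CPM in Npc1+/+ cerebella, a log2 fold change of 1.92 ± 0.20 (adjusted p 5.18e-06). Ctss, a cysteine protease of microglia, was at 99.7, 161, 89.2 and 113 CPM in Npc1-/- cerebella, against 18.2, 16.6, 12.9 and 23.7 CPM in Npc1+/+ cerebella, a difference of 2.41 ± 0.22. Ctse rose by 5.20 ± 0.49 and Ctsz by 1.29 ± 0.21. For Ctsa, Ctsc and the inhibitors Cst3 and Cstb the call ended without Npc1-/- replicate 3, with adjusted p of 0.188 for Ctsa, 0.0963 for Ctsc, 0.0972 for Cst3 and up to 0.236 for Cstb (without Npc1-/- replicate 3 or 4 or Npc1+/+ replicate 2 or 3). Ctsl and the asparaginyl protease gene Lgmn had log2 values of 0.43 ± 0.22 and 0.39 ± 0.22 and did not pass.

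Of 34 tested genes for other lysosomal hydrolases 13 rose and none fell, with a median log2 fold change of 0.48. Hexa, a subunit of the enzyme that degrades the ganglioside GM2, was at 54.5, 92.1, 55.9 and 65.1 CPM in Npc1-/- cerebella, against 22.7, 24.2, 24.2 and 24.3 CPM in Npc1+/+ cerebella, a difference of 1.29 ± 0.20. Man2b1, an alpha-mannosidase, rose by 1.28 ± 0.19. Hexa, Man2b1 and Hpse were among the hydrolase genes called in every leave-one-out fit. Calls of 8 others ended in 1 or more fits, with adjusted p of 0.213 for Naglu, 0.131 for Galns, 0.112 for Gusb, 0.184 for Dnase2a, 0.128 for Fuca2, up to 0.257 for Fuca1 (without Npc1-/- replicate 3 or Npc1+/+ replicate 2, 3 or 4), up to 0.0949 for Acp5 (without Npc1-/- replicate 1, 3 or 4 or Npc1+/+ replicate 3 or 4) and up to 0.115 for Plbd2 (without Npc1-/- replicate 1, 3 or 4 or Npc1+/+ replicate 1, 2, 3 or 4). Naglu, Galns and Gusb degrade glycosaminoglycans, Fuca1 and Fuca2 are fucosidases, and Acp5 is a macrophage phosphatase. Acp5 was at 1.37, 0, 1.32 and 1.503 CPM in Npc1-/- cerebella, against 0.452, 0.5203, 0.133 and 0.126 CPM in Npc1+/+ cerebella, with a log2 fold change of 2.34 ± 0.67, and of 2.96 without Npc1-/- replicate 3. Glb1, Gaa and Arsb, whose loss causes other storage diseases, had log2 values of 0.51 ± 0.20, 0.35 ± 0.18 and 1.32 ± 0.43 and did not pass.

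Lysosomal membrane proteins rose in 8 of 26 tested cases, and the list's median log2 fold change was 0.27. The highest of them are known from phagocytes. They were Gpnmb, Cd68 and Laptm5, given above, the peptide transporter Slc15a3 (3.61 ± 0.29) and the metal transporter Slc11a1 (2.17 ± 0.23). Grn, which encodes progranulin, a lysosomal regulator, was at 191, 193, 157 and 203 CPM in Npc1-/- cerebella, against 59.9, 59.4, 66.1 and 58.5 CPM in Npc1+/+ cerebella, a difference of 1.45 ± 0.15. Cd63 is named above. The call of Lamp2 ended in several fits, with an adjusted p of up to 0.322 for Lamp2 (without Npc1-/- replicate 3 or 4 or Npc1+/+ replicate 3 or 4). The general lysosomal marker Lamp1 was at 247, 149, 215 and 210.5 CPM in Npc1-/- cerebella, against 218, 194, 192 and 161 CPM in Npc1+/+ cerebella, groups that overlapped (log2 0.29 ± 0.21, adjusted p 0.428). Of 18 tested subunits of the proton pump, the 2 that rose were Atp6v0d2 and Tcirg1, and the median was -0.03. The call of Tcirg1 ended without Npc1-/- replicate 3, with an adjusted p of 0.389 for Tcirg1. Of 17 genes for the MiT/TFE factors, which drive lysosomal genes, and their nutrient signalling, 1 rose, a share near the 5.91% of all tested genes that were higher. It was Fnip2, and it did not pass without that library, with an adjusted p of 0.116 for Fnip2. Of 21 autophagy genes 1 rose, again near that 5.91%. It was the receptor gene Optn, with an adjusted p of up to 0.122 for Optn (without Npc1-/- replicate 3 or 4 or Npc1+/+ replicate 1, 2 or 4). Sqstm1, the cargo receptor p62, had a log2 value of 0.36 ± 0.19 and did not pass.

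The core of the motif bound by MiT/TFE factors, TCACGTGA on either strand, was present in the promoters of 2 of 7 cathepsin genes that rose, of none of 9 hydrolase genes and 7 membrane protein genes that rose, and of 3 of 14 membrane protein genes and 3 of 12 pump subunits that did not pass. It was present in 1.97% of the 10060 promoters. The promoters of the 2 cathepsin genes that rose with a match are shown (RefSeq, GRCm38.p6). Capitals mark the matches, of which Ctsd (chr7:142387778-142388077, minus strand) holds 1 and Ctsa (chr2:164833523-164833822, plus strand) holds 2.
Ctsd: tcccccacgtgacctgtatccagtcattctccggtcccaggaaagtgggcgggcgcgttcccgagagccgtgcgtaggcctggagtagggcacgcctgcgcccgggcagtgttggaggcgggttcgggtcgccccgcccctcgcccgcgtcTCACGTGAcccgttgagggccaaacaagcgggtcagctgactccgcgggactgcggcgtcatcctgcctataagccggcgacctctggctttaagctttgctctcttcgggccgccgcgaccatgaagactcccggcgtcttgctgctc
Ctsa: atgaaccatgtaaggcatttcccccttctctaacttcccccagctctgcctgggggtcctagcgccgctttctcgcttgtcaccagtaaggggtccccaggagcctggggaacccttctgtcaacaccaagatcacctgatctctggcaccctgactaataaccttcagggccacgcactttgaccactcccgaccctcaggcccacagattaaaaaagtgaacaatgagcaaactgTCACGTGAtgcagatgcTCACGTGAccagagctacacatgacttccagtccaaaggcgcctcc
Matches were thus seen both in genes that rose and in genes that did not pass.

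In intracellular sterol transport, 2 of 18 genes rose and 1, Npc1 itself, fell, where 5.91% of all tested genes were higher and 4.04% lower. Npc2, the luminal partner of NPC1, was at 409.98, 194, 422 and 380.1 CPM in Npc1-/- cerebella, against 230.2, 168, 130.00 and 133 CPM in Npc1+/+ cerebella, a difference of 1.27 ± 0.27. Its call and that of Osbpl5, which encodes an oxysterol-binding protein, ended in 1 or more fits, with adjusted p of 0.136 for Npc2 and up to 0.0745 for Osbpl5 (without Npc1-/- replicate 3 or Npc1+/+ replicate 2 or 3). Of 25 genes for lipoproteins and cholesterol efflux under the oxysterol receptors LXR, 11 rose and 1 fell. Apoe is given above, Apoc1 rose by 2.00 ± 0.35 and the lipid droplet coat gene Plin2 by 1.31 ± 0.20. These 3 were called in every leave-one-out fit. Plin2 stood at 64.96, 58.7, 56.6 and 75.02 CPM in Npc1-/- cerebella, against 28.4, 27.99, 23.8 and 24.7 CPM in Npc1+/+ cerebella, with no overlap between groups. Abca1, the LXR-induced cholesterol exporter, was at 95.7, 183, 98.7 and 97.6 CPM in Npc1-/- cerebella, against 45.7, 44.6, 59.5 and 53.6 CPM in Npc1+/+ cerebella, a difference of 0.95 ± 0.24. Its call and those of further members, among them the ubiquitin ligase gene Mylip, ended in 1 or more fits, with adjusted p of 0.157 for Abca1, 0.0975 for Apod, 0.0554 for Plin4, 0.118 for Rxra, up to 0.158 for Srebf1 (without Npc1-/- replicate 3 or Npc1+/+ replicate 2, 3 or 4), up to 0.281 for Mylip (without Npc1-/- replicate 3 or Npc1+/+ replicate 1, 2, 3 or 4), up to 0.165 for Lpl (without Npc1-/- replicate 3 or Npc1+/+ replicate 1, 2 or 3) and up to 0.155 for Vldlr (without Npc1-/- replicate 3 or 4 or Npc1+/+ replicate 1, 2 or 3). Vldlr was the member that fell. Nr1h3, which encodes LXR alpha, had a log2 value of -0.85 ± 0.27 and did not pass (adjusted p 0.0517).

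Of 26 genes of cholesterol and fatty acid synthesis 4 rose and none fell, with a median log2 fold change of 0.19. Hsd17b7, which acts late in cholesterol synthesis, was at 73.7, 69.5, 62.1 and 88.3 CPM in Npc1-/- cerebella, against 37.98, 41.3, 34.3 and 34.7 CPM in Npc1+/+ cerebella, a difference of 1.06 ± 0.20. It was called in every leave-one-out fit. Calls for Fdft1 and Mvd of the mevalonate and squalene steps and for the sterol sensor gene Insig1 did not hold throughout, with adjusted p of up to 0.0859 for Fdft1 (without Npc1-/- replicate 3 or Npc1+/+ replicate 3), up to 0.237 for Mvd (without Npc1-/- replicate 3 or 4 or Npc1+/+ replicate 1, 3 or 4) and up to 0.121 for Insig1 (without Npc1-/- replicate 3 or 4 or Npc1+/+ replicate 1, 2, 3 or 4). Sqle and the cholesterol acyltransferase gene Soat1 had log2 values of 0.40 ± 0.17 and 0.52 ± 0.25 and did not pass. Of 33 sphingolipid and ganglioside enzymes 4 fell and none rose. None of the 4 kept its call in every fit, with adjusted p of 0.203 for Ugt8a, 0.0619 for St8sia5, up to 0.451 for Fa2h (without Npc1-/- replicate 3 or Npc1+/+ replicate 1, 2 or 3) and up to 0.196 for Cers6 (without Npc1-/- replicate 3 or 4 or Npc1+/+ replicate 1 or 3). Ugt8a and Fa2h make the galactolipids of myelin. Ugcg, which makes glucosylceramide, had a log2 value of -0.67 ± 0.25 and did not pass.

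**Figure D3:**
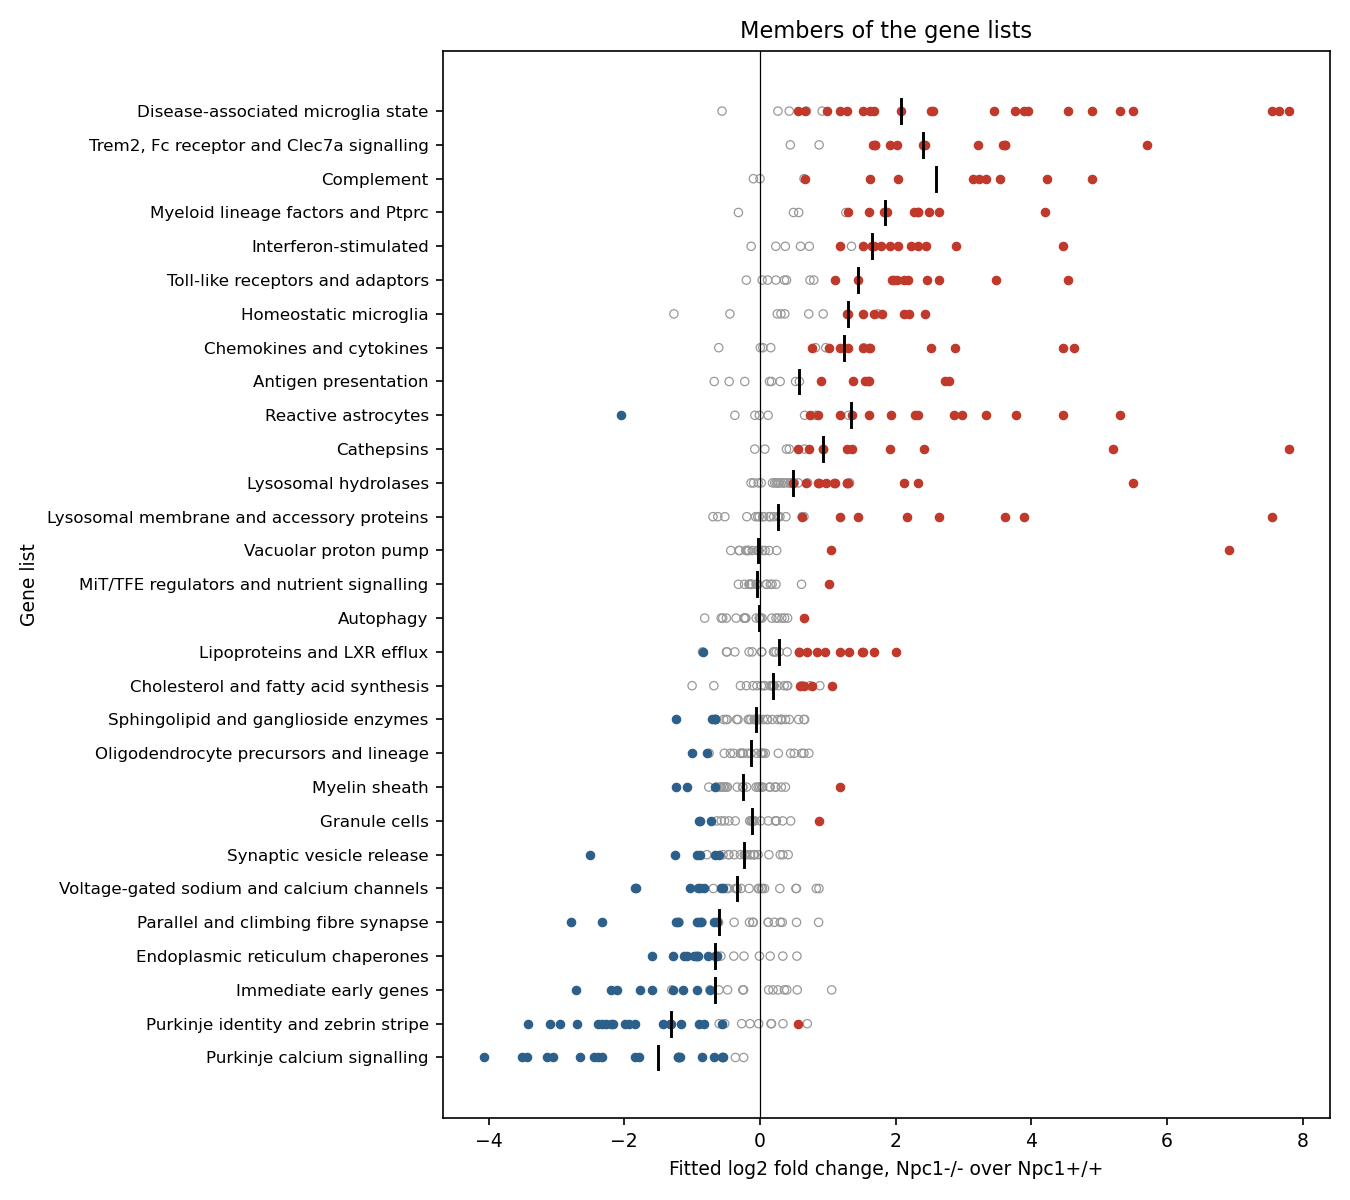
Fitted log2 fold changes of Npc1-/- over Npc1+/+ vehicle cerebellum for the tested members of 29 gene lists, 1 point per gene, with a black bar at the list median; filled red points are members past the adjusted p of 0.05 that were higher, filled blue points those that were lower, and open circles those that did not pass. Medians run from 2.59 for complement at the high end to -1.50 for Purkinje calcium signalling at the low end, and lists of the proton pump, MiT/TFE factors and autophagy sit around 0.

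Purkinje cells convert synaptic input into calcium signals through metabotropic glutamate receptors, phospholipase C and IP3-gated stores, and genes of this pathway fell at nearly every step. Of 22 tested, 19 fell and none rose, with a median log2 fold change of -1.50, and 14 of the 19 were called in every leave-one-out fit. At the store, the IP3 receptor gene Itpr1 was at 291, 227, 432 and 294 CPM in Npc1-/- cerebella, against 2775, 1999, 2673 and 1662 CPM in Npc1+/+ cerebella, a log2 fold change of -2.65 ± 0.25 (adjusted p 1.03e-06). Its regulator Car8 is given above. Homer3, which tethers these proteins at the synapse, stood at 67.1, 63.5, 77.6 and 50.5 CPM in Npc1-/- cerebella, against 361, 312, 294 and 327 CPM in Npc1+/+ cerebella, a difference of -2.32 ± 0.20. For all 3 genes the lowest Npc1+/+ library exceeded the highest Npc1-/- library.

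Further along the pathway, Itpka, a kinase that ends the IP3 signal, was at 11.99, 15.6, 12.5 and 10.1 CPM in Npc1-/- cerebella, against 149, 109, 143 and 116 CPM in Npc1+/+ cerebella, a difference of -3.50 ± 0.24. The IP3 phosphatase Inpp5a changed by -1.78 ± 0.23. The ryanodine receptor gene Ryr1 was at 0.7495, 1.62, 1.32 and 0.752 CPM in Npc1-/- cerebella, against 9.41, 9.47, 9.08 and 11.6 CPM in Npc1+/+ cerebella, a difference of -3.14 ± 0.43. Calcium pumps of the endoplasmic reticulum differed in degree. Atp2a3 changed by -3.05 ± 0.31, and by -4.12 without Npc1-/- replicate 3, while the broadly expressed Atp2a2 changed by -0.86 ± 0.21. Casq2, a calcium store protein, changed by -2.39 ± 0.38, the T-type channel Cacna1g by -1.84 ± 0.23 and Plcb3 by -1.17 ± 0.28. Calb1, the calcium buffer calbindin, was at 43.2, 41.5, 83.96 and 50.8 CPM in Npc1-/- cerebella, against 708, 738, 665 and 666 CPM in Npc1+/+ cerebella, a difference of -3.44 ± 0.23, and of -4.07 without Npc1-/- replicate 3. The calls of the buffer Pvalb, the phospholipase Plcb4, the plasma membrane pump Atp2b2 and the kinase Camk2a ended in 1 or more fits, with adjusted p of 0.0731 for Pvalb, 0.0691 for Plcb4, up to 0.246 for Atp2b2 (without Npc1-/- replicate 1, 3 or 4 or Npc1+/+ replicate 1, 2, 3 or 4) and up to 0.563 for Camk2a (without Npc1-/- replicate 1, 3 or 4 or Npc1+/+ replicate 1, 2, 3 or 4). Cacna1a, the P-type channel mutated in ataxias, had a log2 value of -0.36 ± 0.17 and did not pass (adjusted p 0.215).

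Of 29 tested genes that mark Purkinje cells or divide them into stripes, 19 fell and 1 rose, with a median log2 fold change of -1.31. Pcp2, a G protein modulator found in Purkinje cells, was at 115, 208, 258 and 171 CPM in Npc1-/- cerebella, against 1149, 1549, 1576 and 1889.5 CPM in Npc1+/+ cerebella, a difference of -3.10 ± 0.34, and of -3.97 without Npc1-/- replicate 3. Ppp1r17, a phosphatase inhibitor of Purkinje cells, was at 9.74, 5.92, 17.4 and 7.82 CPM in Npc1-/- cerebella, against 156, 129, 169.9 and 117 CPM in Npc1+/+ cerebella, a difference of -3.41 ± 0.28 (-4.07 without Npc1-/- replicate 3). Replicate 3 held the highest Npc1-/- level of both. Rgs8, a regulator of G proteins, changed by -2.39 ± 0.20, the G protein subunit Gng13 by -2.27 ± 0.31, the tubulin Tuba8 by -2.20 ± 0.20 and the methyltransferase Icmt by -2.32 ± 0.22. Arhgef33, an exchange factor, changed by -2.94 ± 0.33 (-4.04 without Npc1-/- replicate 3), and Slc1a6, the glutamate transporter of Purkinje spines, by -2.16 ± 0.22 (-2.83 without Npc1-/- replicate 3). Kitl, the ligand that Purkinje cells present to Kit on interneurons, changed by -1.93 ± 0.28, and Dner, a Notch ligand for Bergmann glia, by -1.16 ± 0.16. Among transcription factors, Skor2 changed by -2.70 ± 0.39, Foxp4 by -1.32 ± 0.22, Lhx1 by -1.31 ± 0.26 and Rora, mutated in the staggerer mouse, by -0.83 ± 0.20. The calls of Bcl11a, Ebf2, Foxp2 and Plcb4 ended in 1 or more fits, as did that of Gad2, the member that rose, with adjusted p of 0.125 for Bcl11a, 0.131 for Ebf2, up to 0.153 for Foxp2 (without Npc1-/- replicate 3 or 4 or Npc1+/+ replicate 3 or 4), 0.0691 for Plcb4 and up to 0.136 for Gad2 (without Npc1-/- replicate 1, 3 or 4 or Npc1+/+ replicate 1, 2, 3 or 4). Fam107b, an actin-associated protein, changed by -1.84 ± 0.21. The stripe marker Aldoc was listed for astrocytes and Bergmann glia as well. It was at 2568, 1762, 2047 and 3154 CPM in Npc1-/- cerebella, against 2598, 2465, 2490.4 and 2455 CPM in Npc1+/+ cerebella, groups that overlapped. Gad1, shared with interneurons, had a log2 value of -0.52 ± 0.17 and did not pass.

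At the synapses between parallel or climbing fibres and Purkinje cells, 9 of 23 tested genes fell and none rose, with a median log2 fold change of -0.61. On the Purkinje side, the scaffold Grid2ip was at 6.62, 5.92, 8.55 and 4.21 CPM in Npc1-/- cerebella, against 55.7, 43.1, 54.99 and 43.9 CPM in Npc1+/+ cerebella, a difference of -2.79 ± 0.28. The scaffold Shank1 changed by -1.24 ± 0.19. On the granule cell side, Cbln1, a secreted synapse organiser, was at 441, 506, 592 and 416 CPM in Npc1-/- cerebella, against 483, 373, 421 and 594 CPM in Npc1+/+ cerebella, groups that overlapped. Calls of the presynaptic receptor Grm4, the scaffolds Dlg4 and Shank3 and the receptor subunit Gria3 ended in 1 or more fits, with adjusted p of 0.0691 for Grm4, up to 0.0927 for Dlg4 (without Npc1-/- replicate 3 or Npc1+/+ replicate 3 or 4), up to 0.0782 for Gria3 (without Npc1-/- replicate 3 or Npc1+/+ replicate 2 or 4) and up to 0.0975 for Shank3 (without Npc1-/- replicate 1, 3 or 4 or Npc1+/+ replicate 1, 2, 3 or 4). Gria1 and Gria2 had log2 values of -0.85 ± 0.31 and 0.12 ± 0.16 and did not pass.

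**Figure D4:**
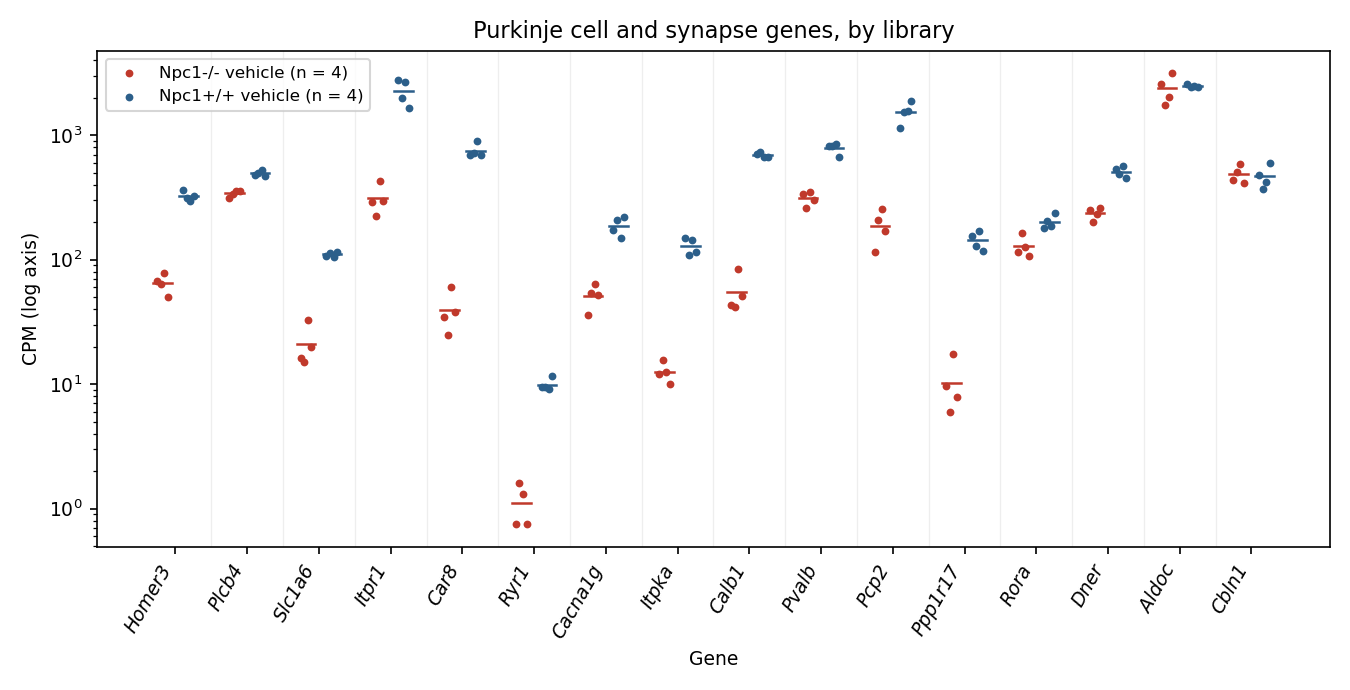
CPM (log axis) of 16 Purkinje cell and synapse genes in each of the 4 Npc1-/- and 4 Npc1+/+ vehicle cerebella, 1 point per library and a bar at the group mean. The first 14 genes lie lower in all 4 Npc1-/- libraries, with replicate 3 the highest Npc1-/- point for Car8, Calb1, Pcp2 and Ppp1r17. Aldoc, also listed for astrocytes and Bergmann glia, and Cbln1 overlap between the groups.

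Granule cells are the small excitatory neurons that send out the parallel fibres. Of 21 tested granule cell genes 3 fell and 1 rose, with a median log2 fold change of -0.12. Slc17a7, the vesicular glutamate transporter, was at 529.6, 770.1, 571 and 538 CPM in Npc1-/- cerebella, against 735, 871, 931 and 1074 CPM in Npc1+/+ cerebella, groups that overlapped in 1 library each. The log2 fold change of Slc17a7 was -0.88 ± 0.22 and that of the granin gene Chgb -0.73 ± 0.15. The potassium leak channel Kcnk9 was at 175, 209, 189 and 197 CPM in Npc1-/- cerebella, against 121, 111, 96.5 and 124 CPM in Npc1+/+ cerebella, a difference of 0.87 ± 0.16. The call of Gabra6 ended without Npc1-/- replicate 3, with an adjusted p of 0.0782 for Gabra6. Zic1, a granule cell transcription factor, had a log2 value of 0.45 ± 0.20 and did not pass. Of 25 genes for interneurons, unipolar brush cells and nuclear neurons 5 fell and 2 rose. Eomes, the transcription factor that defines unipolar brush cells, was at 1.87, 1.62, 3.29 and 1.503 CPM in Npc1-/- cerebella, against 7.87, 10.8, 15.1 and 11.9 CPM in Npc1+/+ cerebella, a difference of -2.06 ± 0.36. The peptide precursor Cck changed by -1.41 ± 0.27. Pvalb of this list is shared with Purkinje cells, and Spp1, 1 of the 2 that rose, with microglia. The calls of these and of Nos1, the other that rose, a nitric oxide synthase gene of granule cells and interneurons, ended without Npc1-/- replicate 3, with adjusted p of 0.0919 for Nos1, 0.0731 for Pvalb and 0.0884 for Spp1. Slc6a5, the glycine transporter of inhibitory neurons, had a log2 value of 0.52 ± 0.31 and did not pass.

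Ion channels and receptors shape the firing of these neurons. Of 26 sodium and calcium channel genes 8 fell and none rose, and of 27 potassium channel genes 7 fell and 1 (Kcnk9) rose. Of 20 ionotropic glutamate receptor genes 4 fell, and of 18 GABA and glycine receptor genes 2 fell, where 4.04% of all tested genes were lower. Kcng4, a silent potassium channel subunit, was at 18.6, 9.69, 15.8 and 11.6 CPM in Npc1-/- cerebella, against 65.2, 47.8, 42.98 and 45.4 CPM in Npc1+/+ cerebella, a difference of -1.65 ± 0.27. Kcnma1, the calcium-activated BK channel, changed by -0.99 ± 0.18. Kcng4, Kcnma1 and Cacna1g were called in every leave-one-out fit. Further calls of sodium and calcium channel genes ended in 1 or more fits, with adjusted p of 0.149 for Scn2b, 0.286 for Scn4b, 0.0519 for Cacna2d2, 0.0641 for Cacnb2, up to 0.121 for Cacnb4 (without Npc1-/- replicate 3 or Npc1+/+ replicate 2, 3 or 4) and up to 0.229 for Scn8a (without Npc1-/- replicate 3 or 4 or Npc1+/+ replicate 1, 2, 3 or 4). Further calls of potassium channel genes ended without Npc1-/- replicate 3, with adjusted p of 0.0975 for Kcnab1, 0.0992 for Kcnj9, 0.0691 for Kcnj3 and 0.122 for Kcna6. Among receptor genes and their auxiliary subunits the values were 0.136 for Cnih2, 0.259 for Grik1, 0.118 for Gabbr2, 0.0782 for Gabra6 and up to 0.0782 for Gria3 (without Npc1-/- replicate 3 or Npc1+/+ replicate 2 or 4). Gria4 and Gabrb2 had log2 values of -0.59 ± 0.19 and -0.54 ± 0.22 and did not pass.

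Of 25 genes of vesicle release 6 fell and none rose. Doc2b, a calcium sensor of spontaneous release, was at 3.12, 4.85, 5.0005 and 2.71 CPM in Npc1-/- cerebella, against 20.1, 18.6, 26.3 and 19.8 CPM in Npc1+/+ cerebella, a difference of -2.51 ± 0.32, and of -3.197 without Npc1-/- replicate 3. Slc17a7 is named above. The other 4 calls ended in 1 or more fits, with adjusted p of 0.0928 for Rims1, 0.089 for Unc13a, up to 0.141 for Cplx2 (without Npc1-/- replicate 3 or Npc1+/+ replicate 3) and up to 0.136 for Rab3a (without Npc1-/- replicate 1, 3 or 4 or Npc1+/+ replicate 2 or 4). Of 21 genes of neurofilaments and the axonal cytoskeleton 2 fell and 1 rose, where 4.04% of all tested genes were lower and 5.91% higher. Sncg, gamma-synuclein, was the one that rose, at 186, 167, 146 and 246 CPM in Npc1-/- cerebella, against 79.9, 81.4, 49.3 and 76.9 CPM in Npc1+/+ cerebella, a difference of 1.48 ± 0.28. The call of Stmn3, a tubulin-binding stathmin, ended without Npc1-/- replicate 3, with an adjusted p of 0.134 for Stmn3. Nefl, the light neurofilament used as a marker of axonal damage in blood, had a log2 value of 0.33 ± 0.18 and did not pass (adjusted p 0.263).

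Astrocyte genes moved in both directions. Of 22 genes known from reactive astrocytes 14 rose and 1 fell, with a median log2 fold change of 1.33. Gfap, their intermediate filament, was at 142, 158, 124 and 143 CPM in Npc1-/- cerebella, against 9.495, 9.47, 8.68 and 9.71 CPM in Npc1+/+ cerebella, a difference of 3.78 ± 0.18 (adjusted p 1.91e-10). Serpina3n, a secreted protease inhibitor, was at 95.2, 74.9, 80.4 and 95.8 CPM in Npc1-/- cerebella, against 11.9, 14.3, 4.67 and 10.5 CPM in Npc1+/+ cerebella, a difference of 2.98 ± 0.28. Cd44, a receptor for hyaluronan, changed by 2.86 ± 0.23. The 3 genes rose in all 4 mutants beyond the wild-type range. Osmr, the oncostatin M receptor, rose by 1.93 ± 0.25, Cd109 by 2.28 ± 0.48 and Stat3, the factor that drives astrocyte reactivity, by 0.74 ± 0.17. C4b, Lgals3, Cxcl10, Gbp2 and Psmb8 of this list are also listed for complement, microglia, interferon or antigen presentation. The calls of the filament gene Vim, the proteoglycan gene Srgn and the membrane protein gene Emp1 ended in 1 or more fits, with adjusted p of 0.0659 for Vim, up to 0.242 for Srgn (without Npc1-/- replicate 3 or Npc1+/+ replicate 1, 3 or 4) and up to 0.186 for Emp1 (without Npc1-/- replicate 1, 3 or 4 or Npc1+/+ replicate 1, 2 or 4). Tnc, a matrix protein of Bergmann glia, was the member that fell, at 3.75, 2.69, 5.92 and 5.86 CPM in Npc1-/- cerebella, against 29.8, 28.4, 26.8 and 19.8 CPM in Npc1+/+ cerebella, a difference of -2.04 ± 0.28.

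Of 29 genes for the identity of astrocytes and Bergmann glia 3 rose and 6 fell. Gja1, the gap junction protein connexin 43, was at 1061, 819, 988 and 947 CPM in Npc1-/- cerebella, against 569.6, 564, 498 and 512 CPM in Npc1+/+ cerebella, a difference of 0.94 ± 0.15. In the other direction, Slc1a3, the glutamate transporter GLAST that is dense in Bergmann glia, was at 222, 171, 287 and 225 CPM in Npc1-/- cerebella, against 499, 519, 587 and 487 CPM in Npc1+/+ cerebella, a difference of -0.91 ± 0.16. Gdf10, a growth factor of Bergmann glia, was at 42.7, 55.5, 47.8 and 34.6 CPM in Npc1-/- cerebella, against 120.2, 91.05, 125 and 104 CPM in Npc1+/+ cerebella, a difference of -1.50 ± 0.23. Aqp4, the water channel, and Slc6a11, a GABA transporter, rose, while Etv4, Timp4 and S100b fell. These 5 calls ended in 1 or more fits, with adjusted p of 0.0678 for Aqp4, up to 0.078 for Slc6a11 (without Npc1+/+ replicate 3 or 4), 0.0963 for Etv4, up to 0.105 for Timp4 (without Npc1-/- replicate 1, 3 or 4 or Npc1+/+ replicate 2 or 4) and up to 0.264 for S100b (without Npc1-/- replicate 1, 3 or 4 or Npc1+/+ replicate 2, 3 or 4). Sox9 and Sox2, factors of glial identity, had log2 values of 0.55 ± 0.18 and -0.53 ± 0.24, and the metabolic genes Slc1a2 and Glul values of 0.50 ± 0.26 and 0.35 ± 0.20; none passed.

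The Fgf pathway signals through ERK to the factors Etv4 and Etv5 and to feedback inhibitors, and in its list of 19 tested genes 4 fell and 2 rose. The ligand Fgf7 is given above. Etv5 was at 65.3, 84.02, 62.9 and 64.6 CPM in Npc1-/- cerebella, against 151, 163, 198 and 169 CPM in Npc1+/+ cerebella, a difference of -1.47 ± 0.20, with no overlap between the groups. Sdc4, a proteoglycan coreceptor, rose by 0.82 ± 0.16. Calls of the ligand Fgf2, which rose, and of Etv4 and the inhibitor Spry4, which fell, ended without Npc1-/- replicate 3, with adjusted p of 0.0944 for Fgf2, 0.0963 for Etv4 and 0.131 for Spry4. The inhibitors Dusp6 and Spred1 had log2 values of -0.79 ± 0.27 and -0.32 ± 0.16 and did not pass.

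Oligodendrocytes make the myelin sheath. Over all tested genes 4.04% were lower and 5.91% higher. Of 28 myelin genes tested 3 fell and 1 rose, with a median log2 fold change of -0.25, and of 23 genes of oligodendrocyte precursors 2 fell. None kept its call in every fit, with adjusted p among them of 0.203 for Ugt8a, up to 0.451 for Fa2h (without Npc1-/- replicate 3 or Npc1+/+ replicate 1, 2 or 3), 0.0975 for Apod, up to 0.145 for Gpr17 (without Npc1-/- replicate 3 or Npc1+/+ replicate 2 or 4) and up to 0.234 for Nkx2-2 (without Npc1-/- replicate 3 or Npc1+/+ replicate 1, 2, 3 or 4). Apod was the one that rose. Mbp, a main protein of compact myelin, was at 8692, 7783, 5714 and 10462 CPM in Npc1-/- cerebella, against 5053, 5215, 4855 and 5577 CPM in Npc1+/+ cerebella, groups that did not overlap. Its log2 value of 0.38 ± 0.18 did not pass (adjusted p 0.213). Mog, a protein of the outer sheath, had a log2 value of -0.58 ± 0.19 and did not pass.

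Immediate early genes, which neurons induce within minutes of activity, fell in 9 of 22 tested cases and rose in none, with a median log2 fold change of -0.67. The nuclear receptor gene Nr4a1 was at 17.5, 14.5, 11.97 and 28.1 CPM in Npc1-/- cerebella, against 68.5, 46.2, 77.01 and 43.1 CPM in Npc1+/+ cerebella, a difference of -2.10 ± 0.30. Its relative Nr4a3 was at 5.12, 9.16, 2.11 and 5.26 CPM in Npc1-/- cerebella, against 16.3, 10.6, 24.4 and 12.4 CPM in Npc1+/+ cerebella, a fitted difference of -2.71 ± 0.39, while the log2 ratio of the group means of Nr4a3 was -1.56. For both, the groups did not overlap. Egr4 changed by -2.20 ± 0.35 and Ier2 by -0.93 ± 0.25. Calls of Nr4a2, Fos, Fosl2 and the phosphatases Dusp1 and Dusp5 ended in 1 or more fits, with adjusted p of 0.157 for Nr4a2, 0.156 for Fos, up to 0.102 for Fosl2 (without Npc1-/- replicate 1 or 4 or Npc1+/+ replicate 1, 2, 3 or 4), up to 0.163 for Dusp1 (without Npc1-/- replicate 3 or Npc1+/+ replicate 3) and 0.143 for Dusp5. Egr1 and Junb had log2 values of 0.27 ± 0.18 and 0.40 ± 0.21 and Arc and Npas4 values of -0.48 ± 0.31 and -1.30 ± 0.59, none of which passed.

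Chaperones of the endoplasmic reticulum fell in 12 of 20 tested cases and rose in none, with a median log2 fold change of -0.66. Hspa5, the chaperone BiP, was at 208, 219, 237 and 264 CPM in Npc1-/- cerebella, against 453, 483, 501 and 594 CPM in Npc1+/+ cerebella, a difference of -0.97 ± 0.17. Manf, a secreted neurotrophic chaperone, was at 66.3, 87.2, 76.98 and 75.8 CPM in Npc1-/- cerebella, against 174, 226, 144 and 215 CPM in Npc1+/+ cerebella, a difference of -1.29 ± 0.19. The chaperone cofactor Sdf2l1 changed by -1.60 ± 0.25 and Dnajb11, a cofactor of BiP, by -1.08 ± 0.20. Manf, Sdf2l1 and Dnajb11 were called in every leave-one-out fit. The other 9 calls ended in 1 or more fits, with adjusted p of 0.0705 for Hspa5, 0.12 for Creld2, 0.0745 for Cdk2ap2, 0.085 for Pdia3, 0.235 for Pdia4, 0.092 for Selenos, 0.121 for Xbp1, up to 0.294 for Hyou1 (without Npc1-/- replicate 1 or 3 or Npc1+/+ replicate 2, 3 or 4) and up to 0.119 for Pdia6 (without Npc1-/- replicate 1, 3 or 4 or Npc1+/+ replicate 2, 3 or 4). Xbp1 encodes a transcription factor that induces such chaperones, and the Pdia genes encode disulfide isomerases. Hsp90b1 and Dnajb9 had log2 values of -0.39 ± 0.24 and 0.34 ± 0.18 and did not pass.

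The endoplasmic reticulum stress element, CCAAT and CCACG with 9 bases between them on either strand, was present in the promoters of 3 of 10 chaperone genes that fell and of 4 of 8 that did not pass, against 0.139% of the 10060 promoters of tested genes. The promoters of the 3 genes that fell are shown with the match in capitals (RefSeq, GRCm38.p6): Hspa5 at chr2:34771840-34772139, plus strand, Creld2 at chr15:88819396-88819695, plus strand and Pdia6 at chr12:17266339-17266638, plus strand.
Hspa5: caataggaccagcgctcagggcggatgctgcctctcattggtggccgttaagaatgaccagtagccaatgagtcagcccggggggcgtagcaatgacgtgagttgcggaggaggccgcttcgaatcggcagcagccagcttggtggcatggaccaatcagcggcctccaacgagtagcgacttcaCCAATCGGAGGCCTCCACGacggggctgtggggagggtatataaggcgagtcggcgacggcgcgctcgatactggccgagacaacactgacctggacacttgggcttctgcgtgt
Creld2: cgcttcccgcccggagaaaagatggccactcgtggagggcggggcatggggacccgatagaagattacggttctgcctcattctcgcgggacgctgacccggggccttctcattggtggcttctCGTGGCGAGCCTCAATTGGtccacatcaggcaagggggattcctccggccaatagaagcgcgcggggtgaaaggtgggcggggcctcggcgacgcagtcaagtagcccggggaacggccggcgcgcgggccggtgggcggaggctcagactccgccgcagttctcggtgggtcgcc
Pdia6: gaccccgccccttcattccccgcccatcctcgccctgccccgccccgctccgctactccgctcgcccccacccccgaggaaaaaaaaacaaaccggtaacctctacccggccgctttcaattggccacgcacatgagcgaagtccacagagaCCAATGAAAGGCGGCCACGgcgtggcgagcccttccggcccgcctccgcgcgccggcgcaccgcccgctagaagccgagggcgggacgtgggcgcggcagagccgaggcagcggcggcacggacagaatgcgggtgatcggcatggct
The match was present both in chaperone genes that fell and in those that did not pass, and it describes the letters only.

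The integrated stress response acts through the factor Atf4. Of 22 genes of this response 2 rose and 1 fell, where 5.91% of all tested genes were higher and 4.04% lower. Atf3, a factor induced by injury, was at 24.4, 12.9, 13.6 and 18.8 CPM in Npc1-/- cerebella, against 2.71, 2.497, 2.67 and 1.39 CPM in Npc1+/+ cerebella, a difference of 2.79 ± 0.30. The amino acid transporter gene Slc7a5 rose and Vldlr fell, calls that ended in 1 or more fits with adjusted p of 0.0698 for Slc7a5 and up to 0.155 for Vldlr (without Npc1-/- replicate 3 or 4 or Npc1+/+ replicate 1, 2 or 3). Trib3, a target of Atf4, had a log2 value of 1.52 ± 0.53 and did not pass. Of 20 genes for metallothioneins, heme, iron and oxidative stress 3 rose, each in every leave-one-out fit. Mt1, a zinc-binding metallothionein, was at 808, 707, 849 and 639 CPM in Npc1-/- cerebella, against 255, 276, 222 and 296 CPM in Npc1+/+ cerebella, a difference of 1.51 ± 0.16. Hmox1, which degrades heme, was at 17.5, 22.6, 22.5 and 23.9 CPM in Npc1-/- cerebella, against 4.97, 5.31, 2.803 and 6.18 CPM in Npc1+/+ cerebella, a difference of 2.17 ± 0.28. The secreted peroxidase Gpx3 changed by 1.68 ± 0.23. Mt3, the neuronal metallothionein, had a log2 value of 0.47 ± 0.18 and did not pass.

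The following lists are read against the 5.91% of all tested genes that were higher and the 4.04% that were lower. Of 38 genes of oxidative phosphorylation 1 rose and 2 fell, and none kept its call, with adjusted p of 0.187 for Uqcrc1, 0.229 for Cox8a and up to 0.403 for Cox5b (without Npc1-/- replicate 1, 3 or 4 or Npc1+/+ replicate 2, 3 or 4). None of 28 proteasome genes passed. Of 12 tested cytosolic ribosomal protein genes 1 did, Rpl34, with an adjusted p of up to 0.214 for Rpl34 (without Npc1-/- replicate 3 or Npc1+/+ replicate 3) and with reads that pseudogenes may share. Of 16 phosphodiesterase genes 1 fell and 1 rose. Pde5a, which degrades cyclic GMP in Purkinje cells, was at 12.4, 16.2, 16.6 and 11.9 CPM in Npc1-/- cerebella, against 42.8, 51.8, 48.98 and 51.2 CPM in Npc1+/+ cerebella, a difference of -1.73 ± 0.21. The call of Pde1b ended without Npc1-/- replicate 3, with an adjusted p of 0.118 for Pde1b. Of 18 adenosine genes 1 rose. It was the ectonucleotidase gene Entpd2, at 35.2, 37.7, 34.5 and 39.8 CPM in Npc1-/- cerebella, against 15.6, 17.3, 14.4 and 16.5 CPM in Npc1+/+ cerebella, a difference of 1.07 ± 0.18. Of 13 proliferation genes 1 rose, the cell cycle inhibitor Cdkn1a, with an adjusted p of up to 0.474 for Cdkn1a (without Npc1-/- replicate 3 or 4 or Npc1+/+ replicate 1, 2, 3 or 4). The mitotic genes Cdk1 and Ccnb2 had log2 values of 1.25 ± 0.54 and -0.99 ± 0.35 and did not pass.

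Of 28 tested collagen and matrix genes 4 rose and 3 fell. Col18a1, the basement membrane collagen that yields endostatin, was at 6.496, 9.16, 5.79 and 5.71 CPM in Npc1-/- cerebella, against 45.8, 33.9, 37.5 and 30.4 CPM in Npc1+/+ cerebella, a difference of -2.72 ± 0.29. Mmp12, a macrophage elastase, had 49 counts in the Npc1-/- libraries and none in the Npc1+/+ libraries, so it was at least 24.4-fold higher against a floor of 3 counts over the group. Timp2, an inhibitor of such proteases, rose by 1.21 ± 0.24. The other 4 calls ended in 1 or more fits, with adjusted p of 0.311 for Timp3, up to 0.277 for Mmp14 (without Npc1-/- replicate 3 or Npc1+/+ replicate 2, 3 or 4), 0.0533 for Col5a1 and up to 0.0802 for Lamb1 (without Npc1-/- replicate 4 or Npc1+/+ replicate 2, 3 or 4). Of 24 endothelial genes 1 rose, the lipid transporter gene Mfsd2a, with an adjusted p of up to 0.164 for Mfsd2a (without Npc1-/- replicate 3 or 4 or Npc1+/+ replicate 1, 3 or 4).

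Markers of tissue bordering the cerebellum were read beside the neuropeptides. Of 10 tested markers of brainstem and midbrain neurons 5 rose and none fell. The list summed to 175 to 239 CPM in the Npc1-/- libraries, against 75.3 to 112 CPM in the Npc1+/+ libraries, with no overlap. Th, the tyrosine hydroxylase of catecholamine neurons and of some Purkinje cells, was at 25.4, 68.4, 31.6 and 23.2 CPM in Npc1-/- cerebella, against 8.23, 10.6, 8.68 and 8.82 CPM in Npc1+/+ cerebella, a difference of 1.69 ± 0.35. None of the 5 kept its call in every fit, with adjusted p of 0.12 for Th, 0.0655 for Ddc, 0.118 for Slc18a3, up to 0.108 for Slc5a7 (without Npc1-/- replicate 3 or 4 or Npc1+/+ replicate 1, 2 or 3) and up to 0.0941 for Chat (without Npc1-/- replicate 3 or 4 or Npc1+/+ replicate 2, 3 or 4). The serotonergic markers Slc6a4 and Tph2 had log2 values of 2.81 ± 0.82 and 2.06 ± 0.88 and did not pass. Tph2 was at 13.7, 0.539, 13.7 and 19.7 CPM in Npc1-/- cerebella, against 2.17, 8.64, 0.267 and 3.15 CPM in Npc1+/+ cerebella, groups that overlapped. Trh, the precursor of thyrotropin-releasing hormone, was at 13.7, 2.69, 5.66 and 11.1 CPM in Npc1-/- cerebella, against 0.362, 1.25, 0.133 and 0.252 CPM in Npc1+/+ cerebella, a difference of 4.09 ± 0.84, and of 4.95 without Npc1-/- replicate 3 and 5.03 without Npc1+/+ replicate 2. Of 17 neuropeptide precursors Adcyap1 also rose, with an adjusted p of up to 0.18 for Adcyap1 (without Npc1-/- replicate 3 or 4 or Npc1+/+ replicate 3 or 4). Cck and Chgb, given above, fell. Whether brainstem tissue in the dissection has a part in these values was not tested. None of 14 tested choroid plexus genes passed. Their sum was 160.3, 3492, 2824 and 2714 CPM in the Npc1-/- libraries, against 1192, 823, 2798 and 2864 CPM in the Npc1+/+ libraries. Of 10 markers of hippocampal and cortical neurons 1 fell, Camk2a, which Purkinje cells also express, with an adjusted p of up to 0.563 for Camk2a (without Npc1-/- replicate 1, 3 or 4 or Npc1+/+ replicate 1, 2, 3 or 4).

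**Figure D5:**
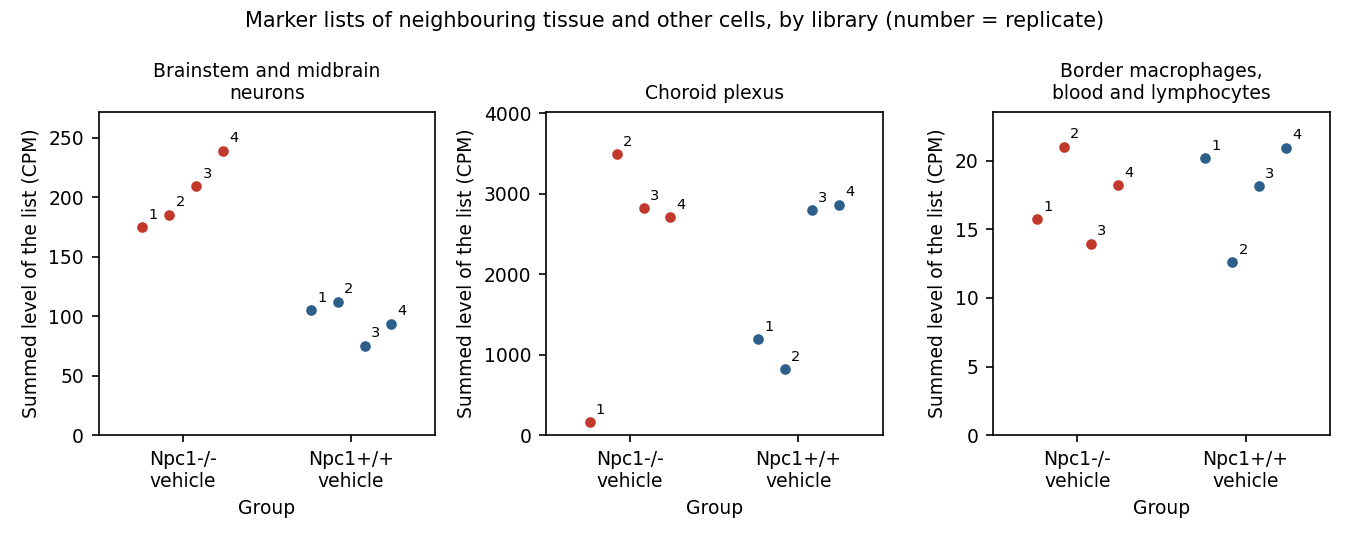
Summed CPM of 3 marker lists in each of the 4 Npc1-/- and 4 Npc1+/+ vehicle cerebella, 1 point per library labelled with its replicate number. The brainstem and midbrain sums do not overlap between the groups, the choroid plexus sum is lowest in Npc1-/- replicate 1, and the sums of border macrophage, blood and lymphocyte markers overlap.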

How the data were processed

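Gene expression was measured with a targeted amplicon panel (Ion AmpliSeq Transcriptome Mouse) from total RNA of single cerebella. Each deposited file holds the whole-number count of reads on every gene for 1 library, which the authors made with featureCounts 2.0.3 without strand on the GENCODE M34 annotation, per the file headers. Trimmomatic 0.39, STAR 2.7.9a and GRCm39 are named in the submitters' processing notes. Antisense partners that overlap a gene share its reads in such counts, and an amplicon samples 1 stretch of a transcript, so levels are not compared between genes.

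The counts were tested with edgeR 4.0.16 (R 4.3.3): filterByExpr, TMM factors and the robust quasi-likelihood test over all 12 cerebellar libraries, with group and sex as terms and the contrast Npc1-/- vehicle minus Npc1+/+ vehicle. P-values were adjusted by Benjamini-Hochberg over all 12921 genes tested, with calls at 0.05. CPM values use TMM-adjusted library sizes. Alternatives were fits with DESeq2 1.42.0 and limma-voom (limma 3.58.1), other scalings, filters and samples, and each library left out. A permutation test over single values of 4 against 4 libraries cannot go below a two-sided p of 0.0286 and was not used. The labels name separate mice; the p-values measure the spread between them. No replicate pair was a repeat of the other (chi-square over genes of 8.86 to 24.3 per degree of freedom), and the sex label fitted the data in 12 of 12 libraries. Counts were also simulated for this comparison, with 67 genes changed 1.5-fold, 67 changed 2-fold and 66 changed 4-fold. No effect of sex, age, batch or GC content was simulated. The test recovered 5.97% of genes changed 1.5-fold, 38.8% changed 2-fold and 87.9% changed 4-fold, with 5 false calls among 12771 genes. These settings differ from the data, so the shares need not hold there.

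Named are Npc1, the 15 genes with the highest and the 15 with the lowest log2 fold change among called genes of at least 5 CPM whose groups did not overlap (without Xist, Y-linked genes and clone names), the called members of 52 gene lists and up to 4 other members per list chosen by role. Some of these members are not reported here. The lists hold 1219 genes, of which 1008 were tested. Members and lists were chosen with earlier results of these data known. A fold against a group at 0 was set against a floor of 3 counts over the group. Intervals and floors come from counts pooled over each group, so they cover counting error only and leave out the spread between animals. The panel has no molecular identifiers, so even counting error may not be fully covered. Promoters are those of RefSeq (250 bases before to 50 after the start), found for 757 of the 1008 tested list members.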

Additional observations from a re-analysis of the deposited data

Results flagged for a closer look

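In 8 of 170 groups of 4 libraries, over 85 results, 1 library lay further from the other 3 than Dixon's 95% criterion allows, and chance marks about 1 in 20 such groups. C3ar1, the complement receptor, was at 53.32 CPM in Npc1-/- replicate 2, against 35.53 to 37.44 CPM in the other 3 Npc1-/- libraries. Cep76, the centriolar protein, was at 32.85 CPM in the same library, against 16.39 to 18.86 CPM in the other 3. The summed level of the Fgf and ERK list was 2656 CPM there, against 2316 to 2372 CPM. The Purkinje calcium list summed to 4208 CPM in Npc1-/- replicate 3, the female, against 3594 to 3689 CPM in the other 3 Npc1-/- libraries. Lysosomal hydrolases summed to 3057 CPM in Npc1-/- replicate 4, against 2799 to 2843 CPM in the other 3. Among the Npc1+/+ libraries, Car8 was at 900.7 CPM in replicate 3, against 693.9 to 725 CPM in the others. Ryr1 was at 11.6 CPM in Npc1+/+ replicate 4, against 9.076 to 9.469 CPM. The list of Atf3, Atf4 and the integrated stress response summed to 1217 CPM in Npc1+/+ replicate 4, against 1123 to 1134 CPM. The genotypes did not overlap for C3ar1, Car8, Cep76 or Ryr1. For the Fgf and ERK list the value of Npc1-/- replicate 2 alone made the groups overlap, since the other 3 Npc1-/- sums lay below all Npc1+/+ sums, which were 2408 to 2521 CPM.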

How the results depend on the processing

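Sex is nearly tied to genotype. Without the sex term 2249 genes passed (1288 higher, 961 lower), and in a fit of the 8 vehicle libraries alone 421 (272 higher, 149 lower), with 159 list members in place of 301. Leaving out each library gave 474 (without Npc1-/- replicate 3) to 1866 genes (without Npc1-/- replicate 2), with 312 to 982 higher, 162 to 884 lower and 165 to 360 list members. A setting added once the data had been seen, with the GC slope of each library as a term, gave 2314 genes (1190 higher, 1124 lower), of which 1224 were among the 1286. With the replicate number as a block 613 genes passed (355 higher, 258 lower), with 194 list members. The numbers do not pair the animals: same-numbered libraries correlated at 0.408, 0.0226, -0.135 and -0.0602, and only number 1 correlated best with its own number. Every gene called in the reported fit kept its direction in every setting in which it was fitted.

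The counts stayed within 1.5 times of those reported with library totals (1286), a stricter filter (1232), no filter (1679), RLE factors (1271), limma-voom (1407) and DESeq2 (1671). In the fit of females only, replicate 3 was the sole Npc1-/- vehicle library, so no count is given. There Npc1 had a log2 value of -1.67. With library totals 62.9% of calls were higher, against 59.4%. Of the named genes that did not pass, 3 changed sign. Gria2 was at -0.03027 without the sex term and between -0.07031 and 0.1551 when a library was left out. H2-D1 was at -0.1013 in females only and -0.08891 in the vehicle libraries alone, and Sall1 was between -0.7041 and 0.5729 when a library was left out. The cause was not tested. The depth of Npc1-/- replicate 2 limits genes under about 1.62 CPM.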
